A study of Aspergillus luchuensis with 9 samples.

Results

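AMY1 is the 1 gene, of 12941 in the deposited table, that the reference annotation of the strain names AMY1, the symbol of an alpha-amylase. It is locus AKAW2_70547S, a protein-coding gene on the plus strand of chromosome 7 from 1479495 to 1481538 in the files' coordinates, which equal those of the reference assembly. Its level was read in 9 poly(A)-enriched, stranded RNA-seq libraries from Aspergillus luchuensis mut. kawachii, a white koji mould that turns the starch of grain into sugar in shochu brewing. The groups were a ΔhepA deletion strain, a ΔlaeA deletion strain and a control strain, all of the mut. kawachii background, with 3 libraries each. The labels give no medium, time, parent construct or number of clones, and do not state that replicates were grown separately. P-values therefore reflect the scatter among these libraries, which may be technical. Levels are FPKM, a read density per unit of length and per library total, as the authors calculated them. Whether that length includes introns is not known.

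Alpha-amylases cut the internal alpha-1,4 bonds of starch and release short maltooligosaccharides, which glucoamylase and alpha-glucosidase then break down to glucose. Koji moulds secrete these enzymes while growing on steamed grain, and in Aspergillus their genes are known to be induced by maltose or isomaltose through the regulator AmyR and repressed by glucose through CreA. HepA corresponds to heterochromatin protein 1 of animals, a reader of methylated histone H3. LaeA is a nuclear regulator known chiefly for secondary metabolism in Aspergillus.

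The reference holds no symbol hepA or laeA, so the deletions themselves were not read out. Relative depth, from the steps in which weakly expressed genes take their FPKM values, was 0.842 to 1.03 of that of control replicate 3 in every library except ΔlaeA replicate 2 (0.66) and ΔlaeA replicate 3 (0.52). A set of 3 libraries lay apart on the first principal component, which held 39.1% of the variance of log2(FPKM + 1). They were ΔhepA replicate 2, at 28.8, and ΔlaeA replicates 2 and 3, at 53.6 and 72.8, while the remaining 6 ran from -46.4 to -9.8. Their mitochondrial genes made up 2.85%, 3.04% and 7.0% of all FPKM, against 1.09% to 1.66% in the remaining 6. The AMY1 difference in each comparison is given with and without them.

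AMY1 was an abundant transcript in every library and was lower in all libraries of both deletion strains than in any control library. It stood at 551, 529 and 656 FPKM in ΔhepA replicates 1 to 3. It stood at 887, 310 and 332 FPKM in ΔlaeA replicates 1 to 3. The control replicates had 1306, 1192 and 1022 FPKM. The ΔhepA and ΔlaeA groups each lay wholly below the control group, and the ΔlaeA libraries split into 1 high and 2 low values that lay on both sides of the ΔhepA values. The means were 579 ± 68.0 FPKM in ΔhepA, 509.6 ± 327 FPKM in ΔlaeA and 1174 ± 143 FPKM in the control (SD, n = 3 each). Genes were tested if 3 or more libraries had at least 1 FPKM, which left 10009. Of these, 709 (7.08%) had all 6 deletion libraries below all 3 control libraries, so AMY1 shares this order with many genes.

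**Figure D1:**
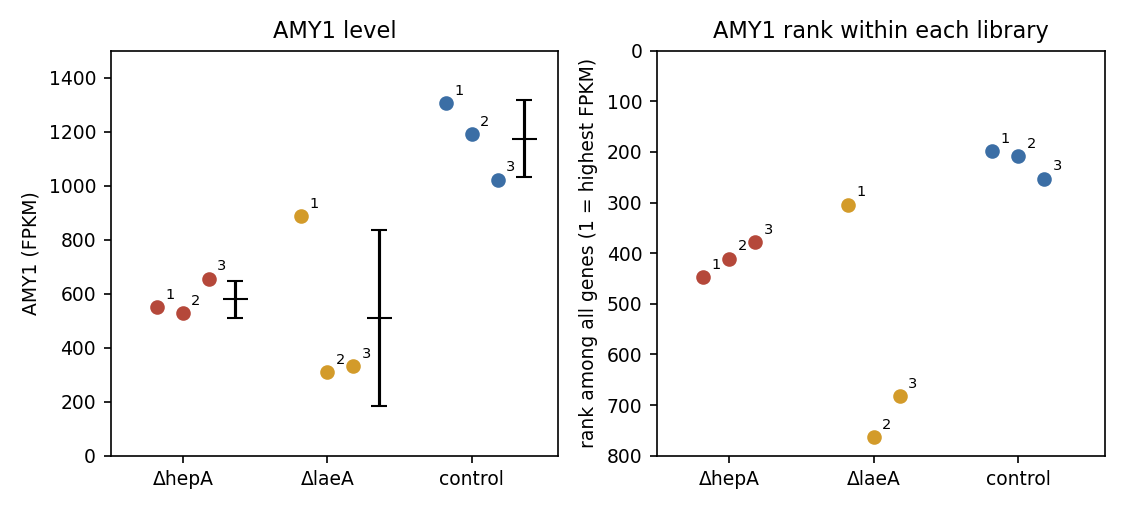
AMY1 level in FPKM (left) and its rank by FPKM among all genes of the same library (right, 1 is the highest, axis inverted), for 3 libraries of ΔhepA, ΔlaeA and the control. Points are libraries labelled by replicate number and black bars show mean ± SD; all 6 deletion libraries lie below the lowest control (1022 FPKM), and ΔlaeA replicate 1 (887 FPKM) lies far above ΔlaeA replicates 2 and 3.

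The rank of AMY1 within its own library does not depend on how libraries are scaled against each other. In ΔhepA replicates 1 to 3 it was the gene with rank 447, 411 and 378 by FPKM. In ΔlaeA the ranks were 304, 763 and 682. In the control they were 199, 208 and 253. AMY1 thus stood in the top 2.92% to 3.45% of genes in ΔhepA, the top 2.35% to 5.9% in ΔlaeA and the top 1.54% to 1.96% in the control, with no overlap of either deletion strain with the control. As a share of the FPKM sum it made up 0.0374% to 0.0427% in ΔhepA, 0.0181% to 0.053% in ΔlaeA and 0.0657% to 0.0873% in the control. Against the median tested gene of the same library it was 25.4 to 31.9 times higher in ΔhepA, 17.6 to 40.7 times in ΔlaeA and 46.4 to 56.4 times in the control.

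In ΔhepA the 3 libraries were close together, at 529 to 656 FPKM. The SD of log2(FPKM + 1) for AMY1 was 0.165 in ΔhepA, 0.846 in ΔlaeA and 0.178 in the control. Among 480 tested genes with a mean of at least 500 FPKM over the 9 libraries, the median SD was 0.275 in ΔhepA, 0.378 in ΔlaeA and 0.254 in the control. AMY1 was therefore steadier than the median abundant gene in ΔhepA and the control. In ΔlaeA, 90.4% of these abundant genes had a smaller SD than AMY1.

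In ΔhepA against the control, AMY1 had a log2 difference of -1.02 ± 0.363 (SE; 95% interval -1.82 to -0.22), a level 0.494 times that of the control. It did not pass the test across all genes, limma on log2(FPKM + 1) with Benjamini-Hochberg adjustment (adjusted p = 0.344). In this comparison 32 of 10009 genes passed an adjusted p of 0.05, which is 0.32%. AMY1 was among the 1044, or 10.4%, with an unadjusted p under 0.05. The ΔhepA libraries lay wholly below the control for 14.2% of tested genes. The exact two-sided permutation test on AMY1 alone gave p = 0.1, the smallest that 3 against 3 libraries allow. The median difference of all genes was -0.15, and with median-ratio scaling, which centres it, AMY1 stood at 597 ± 57.4 in ΔhepA and 1073 ± 126 in the control (scaled FPKM; log2 difference -0.84). Without the 3 libraries that lay apart the log2 difference was -0.96 (limma adjusted p = 0.193), so it was nearly as large without ΔhepA replicate 2.

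In ΔlaeA against the control, AMY1 had a log2 difference of -1.37 ± 0.363 (SE; 95% interval -2.17 to -0.57), a level 0.386 times that of the control. It did not pass the test here either (limma adjusted p = 0.0864). The share of tested genes called was 1.09% (109 genes). AMY1 was among the 2164, or 21.6%, with an unadjusted p under 0.05, and the ΔlaeA libraries lay wholly below the control for 14.5% of tested genes. The exact two-sided permutation p on AMY1 alone was again 0.1, the smallest possible. With median-ratio scaling, against a median difference of all genes of -0.21 in the deposited values, the log2 difference was -1.16. The size of this difference rests on which ΔlaeA libraries are used. Without ΔlaeA replicate 1 the log2 difference was -1.86 and AMY1 was called (limma adjusted p = 0.00431), but that fit called 1601 genes and leaves ΔlaeA with only the 2 libraries that lay apart. With the 3 libraries that lay apart removed, and so replicate 1 alone for ΔlaeA, it was -0.40 (limma adjusted p = 0.596; the single library was taken to vary like the other groups). The low AMY1 values of ΔlaeA replicates 2 and 3 thus came with mitochondrial shares of 3.04% and 7.0% and with the lowest depths. Replicate 1 had a mitochondrial share of 1.09% and a depth of 0.973. The part of these library features in the AMY1 level was not tested.

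ΔlaeA and ΔhepA were not told apart by AMY1. The log2 difference of ΔlaeA against ΔhepA was -0.35 ± 0.363 (SE; 95% interval -1.16 to 0.45; limma adjusted p = 0.769, exact two-sided permutation p = 0.5, n = 3 each), which includes a level 0.449 times and a level 1.36 times that of ΔhepA. In this comparison 5 genes were called, 0.05% of those tested. The direction changed without the 3 libraries that lay apart, to a log2 difference of 0.56 (limma adjusted p = 0.967), since ΔlaeA replicate 1 lay above each ΔhepA library. By mean level the order was ΔlaeA, ΔhepA and control from low to high. The deletion strains did not differ beyond their spread, and each lay below the control without overlap.

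Compared with other genes, the AMY1 difference was larger than most, but less so in ΔlaeA without the libraries that lay apart. Of all 10009 tested genes, 6.06% had a lower log2 difference than AMY1 in ΔhepA and 5.27% in ΔlaeA. Among the 492 tested genes with a control mean of at least 500 FPKM, 23 (4.67%) had a lower difference in ΔhepA, and 23 did in ΔlaeA. Without the 3 libraries that lay apart the shares over all tested genes were 7.2% in ΔhepA and 24.9% in ΔlaeA, and 25 and 89 of the 492 abundant genes lay lower. The plot of difference by level sets AMY1 beside all tested genes and those that passed the test.

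**Figure D2:**
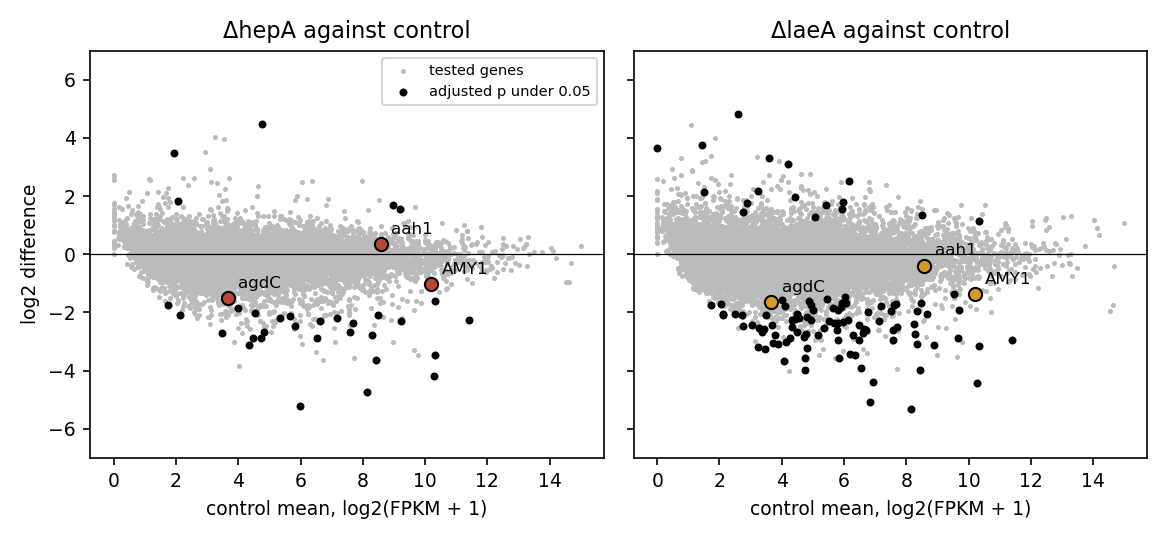
Log2 difference of each tested gene (vertical) by its control mean as log2(FPKM + 1) (horizontal), for ΔhepA against control (left) and ΔlaeA against control (right); grey points are tested genes, black points passed a limma adjusted p of 0.05, and the coloured points are AMY1, agdC and aah1. AMY1 lies below most of the abundant genes in both panels (-1.02 and -1.37) and was not called.

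The list of starch and maltose genes was drawn up as symbols, and 4 of its symbols are in the reference, which gives most genes only a locus tag. They are AMY1, agdC, aah1 and ALP1. Of the 4, 3 were tested and 0 were called in either deletion strain against the control; at an unadjusted limma p under 0.05 there were 2 in each, AMY1 and agdC, beside 10.4% of all tested genes in ΔhepA and 21.6% in ΔlaeA. The median log2 difference of the 3 was -1.02 in ΔhepA and -1.37 in ΔlaeA, which is the value of AMY1 itself, beside -0.15 and -0.21 over all tested genes. ALP1 is also the symbol of a basic amino acid permease in yeast and of an alkaline protease in Aspergillus, and the reference does not say which is meant, so its place in the list is uncertain. It was listed at 0 in every library. Amylase, glucoamylase and alpha-glucosidase genes that the reference lists by locus tag alone were not analysed here, and amyR and creA are not among its symbols.

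agdC is, by its symbol, a gene of the alpha-glucosidase type. The reference does not say which sugars its enzyme splits, so its part in starch breakdown is uncertain. It stood at 2.52, 3.18 and 3.87 FPKM in ΔhepA and at 3.51, 2.7 and 2.28 FPKM in ΔlaeA, against 17.78, 10.15 and 7.01 FPKM in the control. Both deletion strains lay wholly below the control, as for AMY1 and 7.08% of all tested genes, but at a level per length that was far lower. The agdC log2 difference was -1.52 ± 0.374 (SE) in ΔhepA (limma adjusted p = 0.135) and -1.65 ± 0.374 in ΔlaeA (limma adjusted p = 0.0609). These sizes depend on the pseudocount, at -1.75 and -1.92 with 0.1 FPKM and -0.98 and -1.04 with 5 FPKM. Its ΔlaeA values did not split as those of AMY1 did. In ΔlaeA agdC passed the limma test with TPM scaling (adjusted p = 0.044), where 211 genes did, and without ΔlaeA replicate 1 (0.0222), where 1601 did. It did not pass under the other alternatives. Without the 3 libraries that lay apart its log2 difference was -1.52 in ΔhepA and -1.40 in ΔlaeA.

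aah1 is a symbol that fungi use for an alpha-amylase homologue and for adenine deaminase, and the reference does not say which is meant. It stood at 409, 368 and 591.5 FPKM in ΔhepA, at 382, 237 and 214 FPKM in ΔlaeA, and at 456, 199 and 485 FPKM in the control. The groups overlapped in both comparisons. The aah1 log2 difference was 0.34 in ΔhepA (limma adjusted p = 0.805) and -0.39 in ΔlaeA (limma adjusted p = 0.545). AMY1 lay above aah1 in each of the 9 libraries.

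Genes of glycogen and cell wall alpha-glucan, which hold or make the same alpha-linked glucose, were 6, all tested. In ΔhepA 4 were lower and 2 higher, with a median log2 difference of -0.07 beside -0.15 over all genes, and with median-ratio scaling 2 were lower and the median was 0.09. In ΔlaeA 4 were lower and 2 higher with a median of -0.52 beside -0.21, and with median-ratio scaling 4 were lower. None passed the limma test in either strain, and at an unadjusted p under 0.05 there were 0 in ΔhepA and 1 in ΔlaeA, beside 10.4% and 21.6% of all tested genes. ugp1, which makes UDP-glucose, averaged 114 ± 7.28 FPKM in ΔhepA, 108 ± 55.4 FPKM in ΔlaeA and 118.5 ± 6.74 FPKM in the control (SD, n = 3 each). GLC3, the glycogen branching enzyme, averaged 36.6 ± 5.37 FPKM in ΔhepA, 43.4 ± 13.6 FPKM in ΔlaeA and 33.6 ± 8.65 FPKM in the control. The lowest difference in the list, named for that place, was that of the alpha-glucan synthase gene ags1, at -0.90 in ΔhepA and -1.60 in ΔlaeA.

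Genes of carbon catabolite repression and glucose sensing were 11, all tested. Carbon catabolite repression holds amylase genes down when glucose is present, but the list also holds sugar kinases and glucose sensors. Its members do not all act in that direction, so counts of lower and higher genes give no direction of repression. In ΔhepA 8 were lower and 3 higher (median log2 difference -0.34 beside -0.15 over all genes). In ΔlaeA 9 were lower and 2 higher (median -0.50 beside -0.21). With median-ratio scaling 7 were lower in ΔhepA (median -0.17) and 8 in ΔlaeA (median -0.30). None passed the limma test, and 1 in each strain had an unadjusted p under 0.05, beside 10.4% and 21.6% of all tested genes. HXK1, a hexokinase, averaged 162 ± 21.3 FPKM in ΔhepA, 165 ± 12.5 FPKM in ΔlaeA and 137 ± 27.6 FPKM in the control (SD, n = 3 each). RGT2, named after a yeast glucose sensor, averaged 110.4 ± 20.8 FPKM in ΔhepA, 51.2 ± 33.8 FPKM in ΔlaeA and 163 ± 108 FPKM in the control. Control replicate 1 held the highest RGT2 value, 285 FPKM.

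Of the other secreted carbohydrate-active enzymes and their regulator xlnR, 13 symbols were found and 10 genes tested, most of them at low levels. In ΔhepA 7 were lower and 3 higher (median log2 difference -0.39 beside -0.15 over all genes, and -0.26 with median-ratio scaling). In ΔlaeA 5 were lower and 5 higher (median -0.12 beside -0.21, and 0.02 with median-ratio scaling). None passed the limma test, and 1 in each strain had an unadjusted p under 0.05, beside 10.4% and 21.6% of all tested genes. The most abundant were XYL1, a symbol used in fungi for both a xylanase and a xylose reductase, and pmeA, a pectin methylesterase gene. XYL1 averaged 85.3 ± 24.7 FPKM in ΔhepA, 79.1 ± 9.01 FPKM in ΔlaeA and 134 ± 59.0 FPKM in the control (SD, n = 3 each). pmeA averaged 43.4 ± 9.27 FPKM in ΔhepA, 78.6 ± 32.7 FPKM in ΔlaeA and 51.4 ± 6.47 FPKM in the control. AMY1 was thus more abundant per length than every other enzyme gene of this list in the control.

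The secretory pathway carries alpha-amylase out of the cell, and 42 of its genes were tested. In ΔhepA 38 were lower and 4 higher, with a median log2 difference of -0.23 beside -0.15 over all genes, and with median-ratio scaling 25 were lower. In ΔlaeA 29 were lower and 13 higher (median -0.19 beside -0.21), and with median-ratio scaling 20 were lower and the median was 0.02. None passed the limma test, and 0 in ΔhepA and 4 in ΔlaeA had an unadjusted p under 0.05, beside 10.4% and 21.6% of all tested genes. hacA, the regulator of the unfolded protein response, averaged 1383 ± 155 FPKM in ΔhepA, 1750.5 ± 181 FPKM in ΔlaeA and 1356 ± 36.2 FPKM in the control (SD, n = 3 each), close to the control level of AMY1. SEC66, a subunit of the translocation complex in yeast, averaged 505 ± 29.0 FPKM in ΔhepA, 566 ± 48.5 FPKM in ΔlaeA and 681 ± 187 FPKM in the control.

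Glycolysis uses the glucose that starch breakdown yields, and 13 of the 15 genes found for its list were tested. The list holds 2 genes with the symbol GPD1 and 3 with ADH1. GPD1 is also the yeast symbol of glycerol-3-phosphate dehydrogenase, and the reference does not say which enzyme is meant. PDC1 and ADH1 act after pyruvate, in ethanol formation, so the list is wider than glycolysis. The lowest tested difference was that of PYK1 (-0.34 in ΔhepA and -1.12 in ΔlaeA). The highest was that of GPD1_2 (0.60 and 1.22). In ΔhepA 2 were lower and 11 higher (median log2 difference 0.20), and in ΔlaeA 3 were lower and 10 higher (median 0.29). None passed the limma test, and 0 in ΔhepA and 4 in ΔlaeA had an unadjusted p under 0.05, beside 10.4% and 21.6% of all tested genes. PDC1, pyruvate decarboxylase, averaged 5305 ± 1173 FPKM in ΔhepA, 7764 ± 4184 FPKM in ΔlaeA and 5330.2 ± 1209 FPKM in the control (SD, n = 3 each). gpdA, glyceraldehyde-3-phosphate dehydrogenase, averaged 3610.3 ± 593 FPKM in ΔhepA, 3716 ± 841 FPKM in ΔlaeA and 2859.5 ± 339 FPKM in the control. The median of this list was above that of all genes in both strains, whereas the AMY1 difference was below it; the difference between AMY1 and the list was not tested.

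The members of each list were counted again over the 6 libraries that lay together, a step added after the values had been seen, and no gene of any list passed the limma test there. The share of all tested genes with an unadjusted p under 0.05 was 12.8% in ΔhepA and 11.8% in ΔlaeA, and the starch list held 2 and 1 such genes, the other secreted enzymes 1 and 3, glycolysis 1 and 5, and the remaining lists 0. In ΔhepA the lower genes were then 2 of 3 for starch and maltose, 4 of 6 for glycogen and alpha-glucan, 6 of 11 for glucose sensing, 6 of 10 for the other secreted enzymes, 31 of 42 for the secretory pathway and 1 of 13 for glycolysis. In ΔlaeA, with replicate 1 alone, they were 2 of 3, 2 of 6, 5 of 11, 6 of 10, 16 of 42 and 1 of 13 in the same order of lists. The ΔlaeA median thus lay above 0 for glycogen (0.26), glucose sensing (0.11) and the secretory pathway (0.03), where it lay below 0 with all libraries. The ΔlaeA median of all tested genes moved as well, from -0.21 with all libraries to 0.02, close to that of the secretory pathway. In ΔhepA the median of all tested genes was -0.05 over these 6 libraries.

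**Figure D3:**
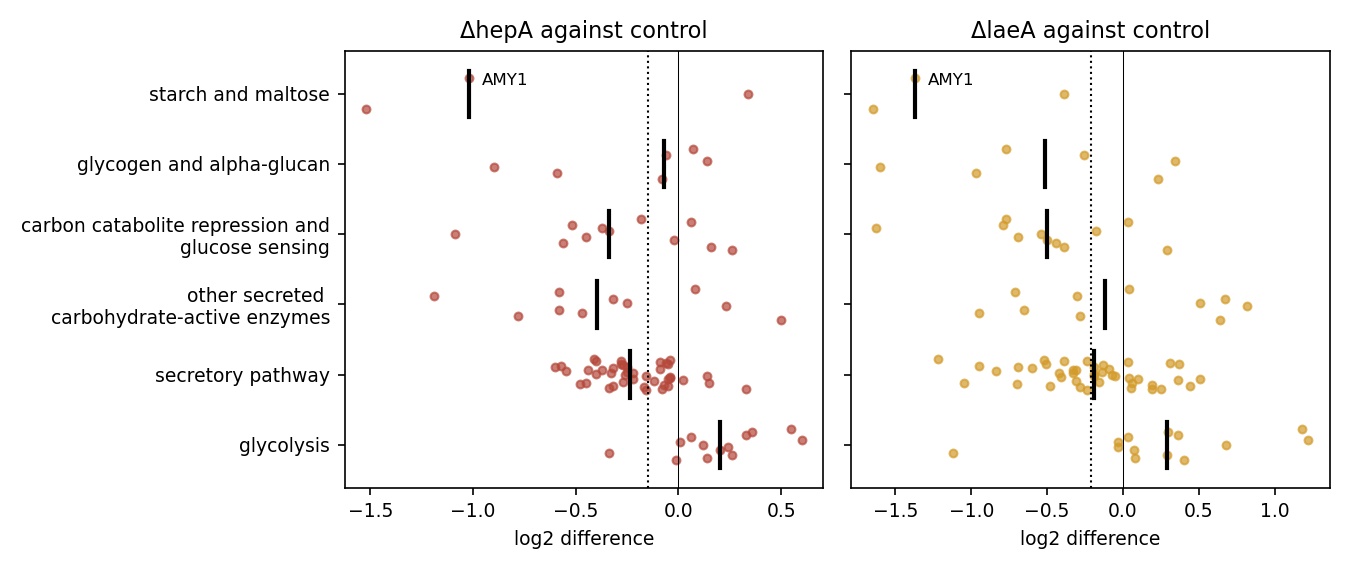
Log2 difference of each tested gene of 6 lists, for ΔhepA against control (left) and ΔlaeA against control (right). Points are genes, thick bars are list medians and dotted lines are the medians of all tested genes (-0.15 and -0.21); AMY1 lies at -1.02 and -1.37, and 0 of the genes shown passed the limma test.

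AMY1 lies beside a long stretch without genes. The next gene downstream, AKAW2_70548A, starts 92470 bases after the end of AMY1, and their locus numbers follow each other directly. Between neighbouring genes of the 8 nuclear chromosomes the median gap was 809 bases. The gap at AMY1 was the tenth largest of 12884, the second on chromosome 7, and 1 of 10 over 50 kb. Each chromosome had at least 1 such gap, and chromosomes 2 and 7 had 2. The upstream neighbour AKAW2_70546S ends 11949 bases before AMY1, the fifth widest gap on the chromosome.

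The 3 genes on each side differed among themselves in direction, and none passed the limma test in either deletion strain. TRK1_2, named after a yeast potassium transporter and the third gene upstream, stood at 66.5, 864 and 189 FPKM in ΔhepA, at 185, 1123 and 1426 FPKM in ΔlaeA, and at 102, 417 and 116 FPKM in the control. Its highest values were in the 3 libraries that lay apart, and without them its log2 difference in ΔhepA was -0.60 in place of 0.38 (limma adjusted p = 0.757 and 0.924). AKAW2_70545S, second upstream, stood at 5.33, 30.2 and 12.5 FPKM in ΔhepA, at 11.0, 43.6 and 29.6 FPKM in ΔlaeA, and at 5.35, 8.53 and 4.61 FPKM in the control, and was also highest in those 3 libraries. Its log2 difference was 0.99 in ΔhepA and 1.86 in ΔlaeA, and 0.41 and 0.78 without those 3 libraries. For TRK1_2 the ΔlaeA difference was 1.96 with them and 0.12 without them.

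AKAW2_70546S, next to AMY1 upstream, stood at 144, 87.5 and 111 FPKM in ΔhepA, at 239, 397 and 210.3 FPKM in ΔlaeA, and at 212, 176 and 256 FPKM in the control. Like AMY1 it lay wholly below the control in ΔhepA (log2 difference -0.92, limma adjusted p = 0.307), but its ΔlaeA values overlapped the control (0.35, limma adjusted p = 0.504). Across the gap, AKAW2_70549A stood at 1.89, 4.08 and 2.25 FPKM in ΔhepA, at 2.26, 2.96 and 4.24 FPKM in ΔlaeA, and at 12.97, 6.38 and 10.99 FPKM in the control. It lay wholly below the control in both strains, as AMY1 did, at a far lower level (log2 difference -1.57 in ΔhepA and -1.40 in ΔlaeA, limma adjusted p = 0.129 and 0.0901). Of all tested genes, 7.08% lay wholly below the control in both strains, and 14.2% did in ΔhepA. AKAW2_70548A had log2 differences of -0.99 in ΔhepA and -0.22 in ΔlaeA, and AKAW2_70550S of -1.04 and -0.26 (limma adjusted p = 0.444 to 0.787). Without the 3 libraries that lay apart the ΔlaeA differences were -1.01 for AKAW2_70548A and -1.28 for AKAW2_70550S, against -0.40 for AMY1. The pseudocount moved the weakly expressed neighbours most: with 0.1 and 5 FPKM the ΔhepA difference was -1.31 and -0.49 for AKAW2_70548A and -1.86 and -0.95 for AKAW2_70549A.

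**Figure D4:**
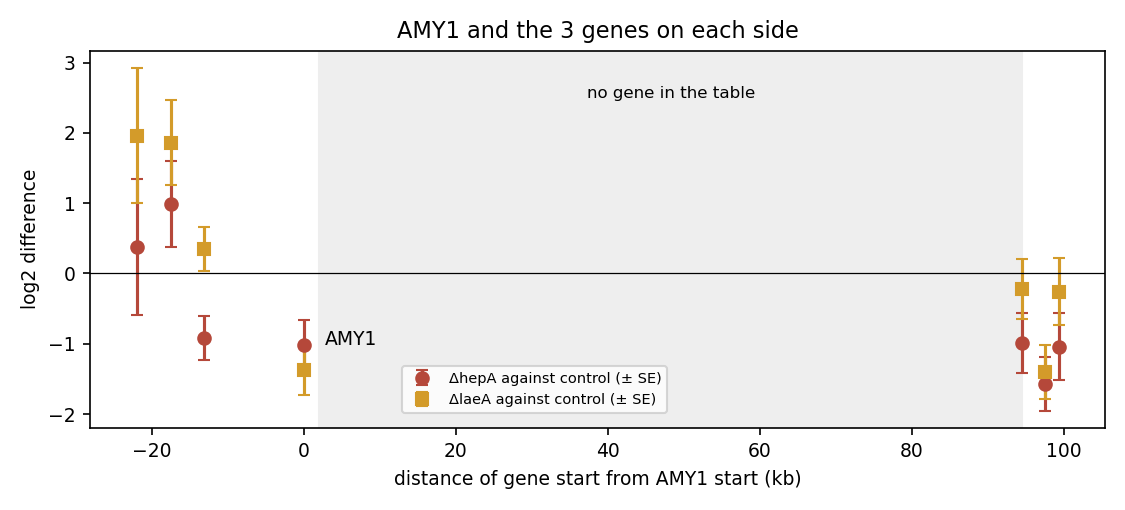
Log2 difference with its SE of AMY1 and the 3 genes on each side, by the distance of each gene's start from the start of AMY1 in kb; circles are ΔhepA against control and squares are ΔlaeA against control. The shaded stretch holds no gene in the table, and the 2 farthest upstream genes lie above 0 while AMY1 lies at -1.02 and -1.37. All 9 libraries enter the plot, and the values of these 2 upstream genes rest largely on the 3 libraries that lay apart.

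The 10 gaps over 50 kb have 20 flanking genes, a set chosen after the values at AMY1 were seen and described here without a test. All 20 were tested genes. In ΔhepA 14 were lower and 6 higher, with a median log2 difference of -0.20 beside -0.15 over all genes, and AMY1 had the lowest difference of the 20. In ΔlaeA 16 were lower and 4 higher, with a median of -0.40 beside -0.21, and 1 had a lower difference than AMY1. These places rest on all 9 libraries. Without the 3 libraries that lay apart AMY1 stood at -0.40 in ΔlaeA, above AKAW2_70548A across its gap, at -1.01. None of the 20 passed the limma test in either strain.

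The profile of AMY1 over the 9 libraries was compared with those of the other 10008 tested genes, by the root-mean-square distance between log2(FPKM + 1) values centred on each gene's mean. AMY1 itself varied about its mean by 0.715 in this measure, and the median distance of a tested gene from it was 0.744. The 8 nearest genes lay at distances of 0.161 to 0.219, none of them on chromosome 7, and 2 have a symbol. The nearest, AKAW2_50037A, was a gene of low level on chromosome 5, at 1.48, 1.14 and 1.57 FPKM in ΔhepA, at 2.61, 0.78 and 0.66 FPKM in ΔlaeA, and at 4.68, 4.43 and 3.41 FPKM in the control. It showed the same split of ΔlaeA into replicate 1 and the lower replicates 2 and 3.

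POL30, which encodes the sliding clamp of DNA replication, was the second nearest at a distance of 0.179. It stood at 92.6, 77.4 and 96.5 FPKM in ΔhepA, at 117, 61.3 and 48.0 FPKM in ΔlaeA, and at 174, 164 and 146 FPKM in the control. The POL30 log2 difference was -0.86 in ΔhepA and -1.19 in ΔlaeA (limma adjusted p = 0.37 and 0.089). tof1, named after a yeast protein that travels with the replication fork, was the fifth nearest, with means of 18.3 ± 5.24 FPKM in ΔhepA, 15.9 ± 8.85 FPKM in ΔlaeA and 39.8 ± 9.38 FPKM in the control (SD, n = 3 each). The other 5 were AKAW2_20994A, AKAW2_80185A, AKAW2_11004A, AKAW2_20980A and AKAW2_20602S. Across these 8 genes the log2 differences ran from -1.11 to -0.74 in ΔhepA and from -1.39 to -1.10 in ΔlaeA, and none passed the limma test. Without the 3 libraries that lay apart the ΔlaeA differences of the 8 ran from -0.57 to -0.19, while without ΔlaeA replicate 1 all 8 were called (limma adjusted p = 0.00715 to 0.0206), as were 1601 genes in all. With a pseudocount of 0.1 and 5 FPKM AKAW2_50037A had -1.51 and -0.52 in ΔhepA and -1.80 and -0.54 in ΔlaeA. Each of the 8 had its ΔlaeA replicate 1 above its ΔlaeA replicates 2 and 3, which the choice by distance fixes. The ranges of their log2 differences, and their calls in a fit that also calls AMY1, follow largely from the same choice. Of the 10008 genes compared, 203 had a Pearson correlation with AMY1 above 0.9. Ranked by Pearson correlation instead, 3 of the 8 stayed among the nearest 8, and over the 6 libraries without those that lay apart 2 did, so the membership of this group depends on the measure and the libraries.

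**Figure D5:**
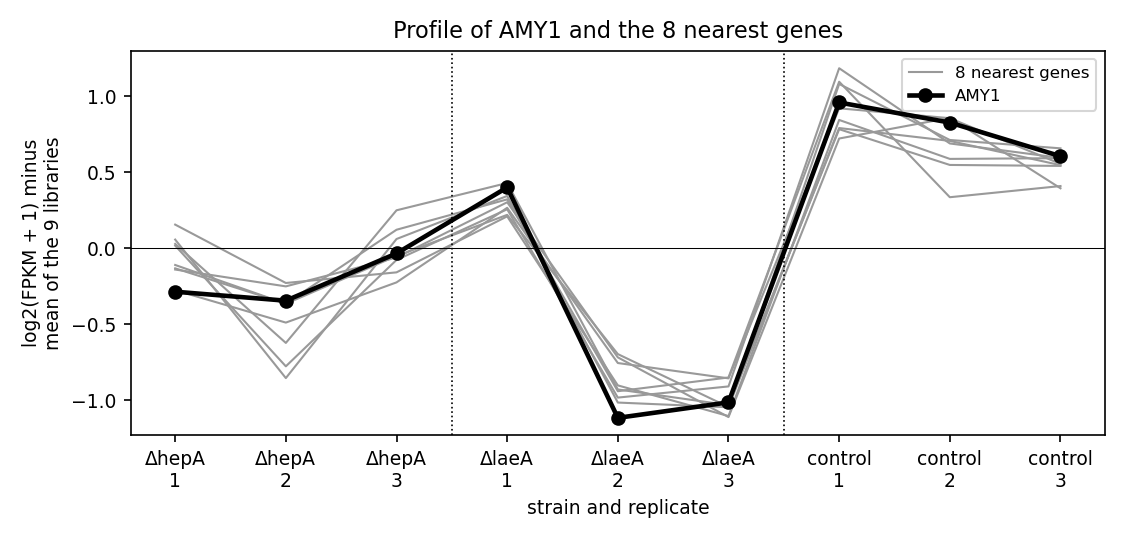
Log2(FPKM + 1) minus its mean over the 9 libraries, by strain and replicate, for AMY1 (black) and the 8 genes nearest to it by root-mean-square distance (grey, 0.161 to 0.219). All 9 genes are highest in the control and lowest in ΔlaeA replicates 2 and 3, with ΔlaeA replicate 1 above the other ΔlaeA libraries.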

How the data were processed

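The submitters' processing notes list RSEM 1.3.1, STAR 2.7.9a and featureCounts 2.0.1, and further cutadapt 3.7, Trimmomatic 0.39, Trim Galore 0.6.7 and FastQC 0.11.9, without saying what each did. The authors deposited 1 table of FPKM values with 1 column per library. The sources used here do not give the genome build. The deposited gene length equals the genomic span in 12936 of 12941 genes, so how introns entered the FPKM is not known, which limits comparisons of level between genes. Read totals were not used, and FPKM is not a count, so count tests were not used and no counting interval is given.

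All 12941 identifiers matched the reference gene table, whose start and end equal the files' in 12936; 2243 have a symbol other than the locus tag. The 10009 genes that reached 1 FPKM in 3 or more libraries were tested. In R 4.3.3, limma 3.58.1 fitted log2(FPKM + 1) to strain means across the 9 libraries, leaving 6 residual degrees of freedom, and moderated the variances with a mean trend. This scale understates changes of weakly expressed genes. Tests were two-sided, and p-values were adjusted over all tested genes by Benjamini-Hochberg with a threshold of 0.05. The fit was tested on simulated data with planted changes, in 50 genes of each size per comparison. A planted log2 change of 1 was recovered in 8% of genes for ΔhepA against control and in 22% for ΔlaeA against control. For a change of 2 the shares were 70% and 58%. Each comparison was simulated from the same gene means and the same spread, pooled over the strains, so these shares differ only by the draw. The planted genes were not chosen at the level of AMY1, and no simulated libraries lay apart. A log2 change of 1 thus mostly went uncalled in the simulation, and power for AMY1 itself was not tested.

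AMY1, the gene lists and the tests were chosen with earlier results of these data known. Named genes are AMY1, every gene found of the starch list, the 8 nearest profiles, the 3 neighbours on each side, and the 2 most abundant genes of each other list in which none was called; other genes named were chosen after their values were seen. The alternatives changed the pseudocount (0.1 or 5), the filter (none, or a 9-library mean of 5 FPKM), the scaling (median-ratio or TPM), the variance model (2 groups alone, or without the trend) and the design (replicate number as a block). Others left out each library in turn, or the 3 that lay apart. Tables and plots were made in Python 3.11.15 with pandas 2.3.3, numpy 2.4.6, matplotlib 3.10.9 and scipy 1.17.1. Promoter and protein sequences of AMY1 were not analysed here.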

Additional observations from a re-analysis of the deposited data

How the results depend on the processing

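The AMY1 log2 difference kept its sign and stayed uncalled under the 9 alternatives of fit, filter and scaling in each of the 3 comparisons. It ran from -1.02 to -0.84 in ΔhepA (limma adjusted p 0.1 to 0.396), from -1.49 to -1.16 in ΔlaeA (0.0591 to 0.162) and from -0.53 to -0.32 for ΔlaeA against ΔhepA (0.535 to 0.806). Leaving out 1 library gave -1.11 to -0.94 in ΔhepA, -1.86 to -1.10 in ΔlaeA and -0.84 to -0.09 between the deletion strains. The exceptions were the call in ΔlaeA without its replicate 1, and the fit that drops the 3 libraries lying apart. That fit changed the sign between the deletion strains (0.56) and gave a smaller ΔlaeA difference (-0.40). With the replicate block the 3 differences were -1.02, -1.37 and -0.35 (adjusted p = 0.311, 0.0762 and 0.713). The deviations of same-numbered libraries correlated by -0.22 to 0.423, so the numbers were not taken as pairs.

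The number of genes called in ΔhepA was 32, and 11 with a pseudocount of 0.1, 13 with no filter, 14 with a fit on 2 groups, 6 with median-ratio scaling, 6 with the replicate block, 7 without the 3 libraries, and 5 to 55 with 1 library left out. In ΔlaeA it was 109, and 211 with TPM scaling, 49 with 2 groups, 174 with the replicate block, 9 without the 3 libraries, and 21 to 1601 with 1 library left out. Between the deletion strains it was 5, and 1 with a pseudocount of 5, 0 with 2 groups, 1 with the replicate block, 0 without the 3 libraries, and 1 to 257 with 1 library left out. Starch genes called in ΔlaeA numbered 0, and 1 with TPM scaling and 2 without ΔlaeA replicate 1.

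The other genes counted under the alternatives were 16, namely agdC, aah1, the 3 neighbours on each side and the 8 nearest profiles. Of their 508 values, 489 kept sign and side of the threshold, 11 gained a call and 8 changed sign. None of the 16 was called with the main settings, and the count ignores size. TRK1_2 in ΔlaeA counted as kept at 0.12 without the 3 libraries, in place of 1.96. The genes named from the other lists were not counted in this way. Without the 3 libraries aah1 stood at 0.11 in ΔlaeA and TRK1_2 at -0.60 in ΔhepA. With 1 library left out aah1 ran from -0.07 to 0.57 and TRK1_2 from -0.60 to 1.24 in ΔhepA, and AKAW2_70548A from -0.47 to 0.18 and AKAW2_70550S from -0.68 to 0.25 in ΔlaeA. The cause of these shifts was not tested. Ranks among nuclear coding genes were 11 to 12 places higher than among all genes. Depth limits low genes most in ΔlaeA replicates 2 and 3.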
